A study of Mus musculus with 6 samples.

Results

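The transforming growth factor beta (TGF-beta), activin and bone morphogenetic protein (BMP) pathway was examined in adult mouse forebrain cortex through 54 genes of 19938 measured. Members were taken by name: Smad, Tgfb, Tgfbr, Bmp, Bmpr, Acvr, Inhb and Gdf genes, with Inha, Bambi, Fst, Nog, Chrd, Grem1 and Scube1. Each of the 54 is read by a single probe set with 1 gene symbol. By role they comprise 26 ligands, 12 receptors and co-receptors, 8 Smad proteins, 7 extracellular antagonists and regulators, and Bmp2k, a kinase named for its induction by BMP2. Gdf1 shares its probe set with Cers1 and is not among them.

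Total RNA was taken from cortex of 3 mice labelled Dicer KO and 3 littermate controls on a C57BL/6 background, with 1 Affymetrix whole-transcript array per animal. The labelled KO mice carried CamKII-Cre and were homozygous for the floxed Dicer allele (CamKII-Cre/+;Dicer flox/flox). Controls either carried CamKII-Cre with 1 floxed allele (CamKII-Cre/+;Dicer flox/+) or had both alleles floxed and no Cre (+/+;Dicer flox/flox). Which control had which genotype is not given, and every animal carried at least 1 floxed allele. CamKII-Cre acts in excitatory forebrain neurons, so glia, vessels and most interneurons keep Dicer, the enzyme that releases mature microRNAs from their precursors.

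Ligands of this family bind pairs of type I and type II serine/threonine kinase receptors, which phosphorylate receptor-regulated Smad proteins. Smad2 and Smad3 carry TGF-beta and activin signals and Smad1, Smad5 and Smad9 carry BMP signals, each with the shared partner Smad4, while Smad6 and Smad7 inhibit the pathway. Secreted antagonists such as chordin, noggin and follistatin hold ligands away from receptors. In the adult cortex TGF-beta is known for its part in microglial and vascular maintenance, activin A as an activity-induced factor of excitatory neurons, and BMPs for effects on astrocytes.

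Deposited log2 expression values were compared with limma over all 19938 genes, with Benjamini-Hochberg adjustment and a threshold of 0.05. Array medians lay between 7.13 and 7.22, and precision is set by the 3 arrays of each group. Dicer1 itself read 9.58, 9.68 and 9.46 in the labelled KO arrays, against 9.17, 9.21 and 9.18 in controls. It was higher in every labelled KO array, by 0.39 ± 0.087 in the mean (SE; limma adjusted p = 0.102). This probe set thus shows no loss of the transcript, and "labelled KO" is used throughout. Cells without Cre keep the gene, and which exons the probe set reads was not examined. Markers typical of olfactory bulb stood apart in control array 1, 0.78 above the mean of the controls, where the other 5 arrays lay between -0.46 and -0.32. The Y-linked transcript Eif2s3y placed labelled KO arrays 1 and 3 and control array 2 as male and the other 3 as female.

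Scube1 fell in the labelled KO arrays, the 1 member of 54 past the threshold, where 0.281% of all genes were called in either direction, 0.0903% higher and 0.191% lower. Chrd, Bmp1, Tgfbr3 and Acvr2a had the largest positive differences, from 0.48 to 0.69 on the log2 scale, and Inhba, Fst and Gdf11 the largest negative ones after Scube1, from -0.40 to -0.35. None of these 7 passed the adjusted threshold. Scube1 was already known to differ in these arrays when the members were chosen. Without it 0 of 53 members passed, and 13 of the 53 had an unadjusted p under 0.05.

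In all, 14 of the 54 members (25.9%) had an unadjusted p under 0.05, 6 higher and 8 lower, beside 14.4% of all genes (7.01% higher and 7.39% lower). This count was 8 without labelled KO array 1, 8 without control array 1 and 9 without control array 2, and over all genes it also fell, to 2207, 2197 and 2500, against 2871 with all arrays. In 17 members (31.5%) the 2 groups did not overlap, 8 with the labelled KO arrays higher and 9 lower, beside 20.3% of all genes (9.3% higher and 11% lower). Without control array 3 the groups did not overlap in 27 members and in 6205 of all genes. A log2 difference of 0.3 or more in size was seen in 8 members, where 9.78% of all genes had one. The median difference of the 54 was 0.090 and that of all genes -0.0092. Array by array the members' median stood at 0.077, -0.024 and 0.089 in labelled KO arrays 1 to 3 and at 0.0074, -0.030 and -0.0041 in the control arrays, so labelled KO array 2 lay within the range of the controls. Without labelled KO array 3 the median was 0.027.

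**Figure D1:**
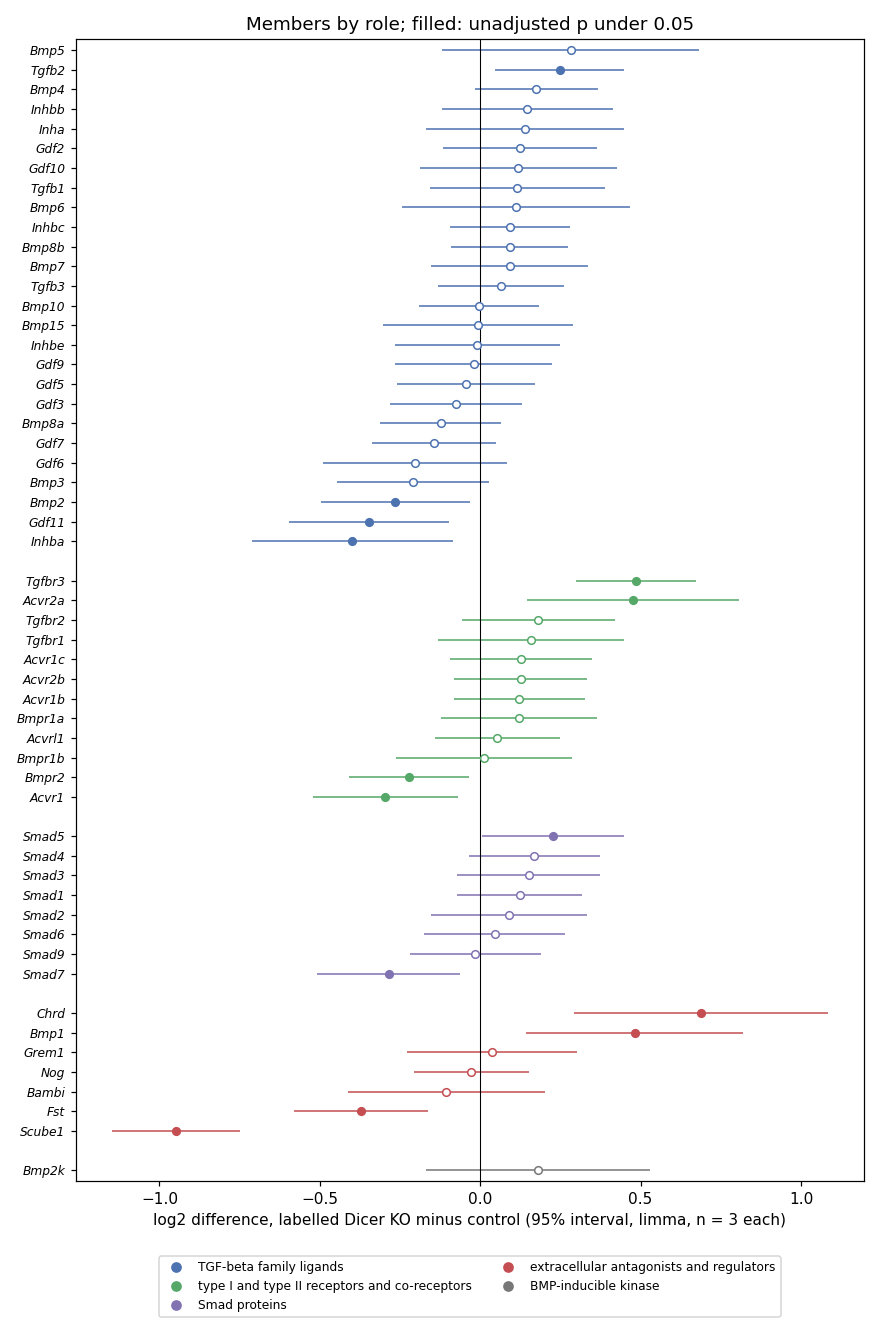
Log2 difference (labelled Dicer KO minus control) of each of the 54 members, grouped by role, with 95% intervals from limma (n = 3 each). Filled points mark the 14 members with an unadjusted p under 0.05. Scube1 lies farthest from 0, at -0.95, and most ligands have intervals that include 0.

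Among the extracellular regulators, Scube1 encodes a secreted and membrane-associated protein with CUB and EGF-like domains that has been reported to bind BMP ligands. It read 8.18, 8.22 and 8.19 in the labelled KO arrays, against 9.27, 9.10 and 9.06 in controls. The labelled KO arrays lay close together and well below every control. The mean was 8.20 ± 0.020 in labelled KO arrays and 9.15 ± 0.11 in controls (SD, n = 3 each), a difference of -0.95 ± 0.088 (SE; limma adjusted p = 0.0190), 1.93-fold lower, and its p was the smallest of all 19938 genes. The difference stayed between -0.99 and -0.89 with any 1 array left out, but the adjusted p was then 0.0606 without labelled KO array 1, 0.0534 without array 2, and 0.106, 0.0979 and 0.0549 without control arrays 1, 2 and 3. With sex as a covariate it was -0.93 (adjusted p = 0.0606). In whole cortex a smaller number of cells of a type and less RNA per cell cannot be told apart, here and for every gene below.

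Chrd encodes chordin, which binds BMPs outside the cell, and Bmp1 encodes not a ligand but the metalloprotease that cleaves chordin and procollagens. Chrd read 8.60, 9.09 and 8.40 in the labelled KO arrays, against 8.05, 8.17 and 7.80 in controls. Bmp1 read 9.29, 9.72 and 9.19 in the labelled KO arrays, against 9.06, 8.97 and 8.72 in controls. For both genes the groups did not overlap, labelled KO array 2 was the highest of the 6 and control array 3 the lowest. The difference was 0.69 ± 0.17 for Chrd (SE; limma adjusted p = 0.131), 1.61-fold, and 0.48 ± 0.15 for Bmp1 (adjusted p = 0.198). Without labelled KO array 2 the Chrd difference was 0.49 and the Bmp1 difference 0.32. In that array the meningeal and fibroblast markers stood at 0.081 and the astrocyte markers at 0.057 relative to the controls. These were the lowest of the labelled KO arrays for both lists. Its endothelial markers, at 0.205, and its choroid plexus markers, at 0.315, were the highest. The choroid plexus value rests mainly on 1 gene, Ttr, at 10.95 in that array against 8.74, 8.34 and 8.18 in controls. Between the groups 4 of the 8 genes of that list were higher and 4 lower.

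Follistatin, the product of Fst, neutralises activins and some other ligands of the family. Fst read 7.07, 6.97 and 7.10 in the labelled KO arrays, against 7.54, 7.32 and 7.39 in controls, with no overlap. The difference was -0.37 ± 0.092 (SE; limma adjusted p = 0.126). The other antagonists gave no such separation. Nog, which encodes the BMP antagonist noggin, read 7.88, 7.87 and 7.92 in the labelled KO arrays, against 7.97, 7.90 and 7.87 in controls, and the 95% interval of its difference of -0.028 was -0.21 to 0.15. Bambi, a pseudoreceptor without kinase activity, read 7.86, 7.65 and 7.59 in the labelled KO arrays, against 8.07, 7.56 and 7.80 in controls. Its highest value was in control array 1, and its difference of -0.11 turned to 0.024 without that array. Grem1, which encodes the BMP antagonist gremlin, was at 0.036.

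The promoters of Scube1 and Chrd, the members with the largest differences down and up, are given here from RefSeq (build GRCm38.p6, 250 bases before the transcript start to 50 after it, 5′ to 3′ on the strand of the gene). The Scube1 window is chr15:83724990-83725289 on the minus strand and the Chrd window chr16:20732877-20733176 on the plus strand. Capitals mark matches on either strand to CAGAC, a short element bound by Smad proteins, and to GGCGCC, a GC element known from BMP-responsive genes.
Scube1: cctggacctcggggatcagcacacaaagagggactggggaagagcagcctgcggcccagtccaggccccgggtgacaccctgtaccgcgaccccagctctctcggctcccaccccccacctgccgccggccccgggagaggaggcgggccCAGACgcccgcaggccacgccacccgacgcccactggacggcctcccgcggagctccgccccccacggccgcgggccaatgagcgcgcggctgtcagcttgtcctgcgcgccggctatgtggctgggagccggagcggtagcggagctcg
Chrd: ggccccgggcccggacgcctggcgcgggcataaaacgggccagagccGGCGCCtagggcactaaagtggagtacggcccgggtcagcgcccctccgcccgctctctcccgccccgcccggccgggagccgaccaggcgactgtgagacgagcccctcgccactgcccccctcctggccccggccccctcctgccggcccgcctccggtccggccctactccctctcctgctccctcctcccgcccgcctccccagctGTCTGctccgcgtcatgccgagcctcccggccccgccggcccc

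The Scube1 window holds 1 match to CAGAC and none to GGCGCC, and the Chrd window holds 1 match to each. RefSeq entries were matched for 37 members, with 43 windows, of which 19 (44.2%) held CAGAC and 11 (25.6%) held GGCGCC. Over all 32851 RefSeq windows of this length CAGAC occurred in 49.6% and GGCGCC in 11.9%. Member windows were richer in G and C, with a median of 65.3%, against 52.7% over all windows, and a match describes the letters only. The palindrome TGACGTCA, the cAMP response element, was in 0 of the 43 windows and in 1.79% of all windows.

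**Figure D2:**
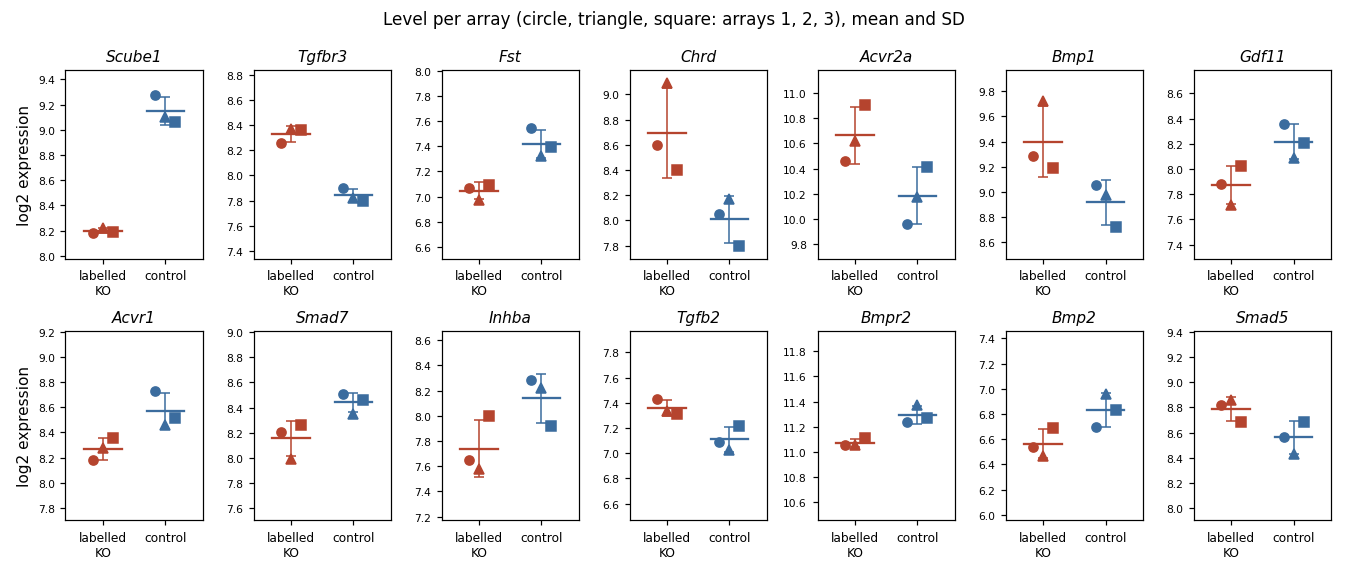
Log2 expression per array of the 14 members with an unadjusted p under 0.05, labelled KO at the left and control at the right of each panel, in order of p. Circles, triangles and squares are arrays 1, 2 and 3, bars are means and whiskers SD. In Scube1 and Tgfbr3 the groups lie well apart, Inhba and Smad5 overlap, and Chrd and Bmp1 are highest in labelled KO array 2.

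Of the 12 receptors and co-receptors 10 had positive differences, and 4 had an unadjusted p under 0.05, 2 in each direction. Tgfbr3 encodes betaglycan, a co-receptor that presents TGF-beta2 and lets inhibin compete with activin. It read 8.26, 8.36 and 8.36 in the labelled KO arrays, against 7.90, 7.82 and 7.80 in controls. The spread within each group was small beside the gap. Its difference of 0.49 ± 0.082 (SE), 1.40-fold, just missed the threshold (limma adjusted p = 0.0548), and with only the 9969 brighter genes tested it passed (adjusted p = 0.0336). Every leave-one-out difference lay between 0.47 and 0.52.

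Acvr2a encodes the type II activin receptor, which also serves some BMPs. It read 10.46, 10.62 and 10.91 in the labelled KO arrays, against 9.96, 10.18 and 10.42 in controls, a difference of 0.48 ± 0.15 (SE; limma adjusted p = 0.193). The groups were next to each other, since the lowest labelled KO array lay just above the highest control, and array 3 was the highest in both groups. The related Acvr2b read 7.61, 7.45 and 7.69 in the labelled KO arrays, against 7.52, 7.44 and 7.42 in controls, so these overlapped.

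The BMP receptors Acvr1 and Bmpr2 had the opposite sign. Acvr1, also called ALK2, is a type I receptor and read 8.18, 8.28 and 8.35 in the labelled KO arrays, against 8.73, 8.46 and 8.52 in controls. Bmpr2, the type II receptor dedicated to BMPs and related GDFs, read 11.06, 11.06 and 11.11 in the labelled KO arrays, against 11.24, 11.38 and 11.27 in controls. Both were lower in every labelled KO array than in any control, at -0.30 ± 0.10 for Acvr1 and -0.22 ± 0.082 for Bmpr2 (SE; limma adjusted p = 0.224 and 0.261). Bmpr1a, a type I BMP receptor, read 9.94, 9.83 and 10.14 in the labelled KO arrays, against 9.75, 9.82 and 9.98 in controls, and its groups overlapped.

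The TGF-beta receptors proper also overlapped between groups. Tgfbr1, the type I receptor, read 8.97, 8.87 and 9.35 in the labelled KO arrays, against 8.84, 8.88 and 9.002 in controls. Tgfbr2, the type II receptor, read 8.29, 8.32 and 8.56 in the labelled KO arrays, against 8.19, 8.10 and 8.33 in controls. In both genes array 3 was the highest of its group, and the 95% interval was -0.13 to 0.45 for Tgfbr1 and -0.058 to 0.42 for Tgfbr2. Labelled KO array 3 also had the highest astrocyte markers, 0.55 above the controls, and the highest microglia markers, 0.51 above. Without that array Tgfbr1 was at 0.015 and Tgfbr2 at 0.095. The remaining 4 receptors, Acvr1b, Acvr1c, Acvrl1 and Bmpr1b, lay between 0.012 and 0.13.

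Among the 26 ligands 13 had positive and 13 negative differences, with a median of 0.030, and 4 had an unadjusted p under 0.05. Inhba encodes the subunit of activin A. It read 7.65, 7.57 and 7.998 in the labelled KO arrays, against 8.28, 8.22 and 7.92 in controls. Labelled KO array 3 lay above control array 3, so the groups overlapped, and the difference was -0.40 ± 0.14 (SE; limma adjusted p = 0.238). Without labelled KO array 3 it was -0.53.

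Gdf11, a ligand that signals through activin receptors, read 7.88, 7.72 and 8.02 in the labelled KO arrays, against 8.36, 8.08 and 8.21 in controls, a difference of -0.35 ± 0.11 (SE; limma adjusted p = 0.206). Without control array 1, where Gdf11 was highest, the difference was -0.27. Bmp2 read 6.54, 6.47 and 6.69 in the labelled KO arrays, against 6.69, 6.96 and 6.83 in controls, at -0.26 ± 0.10 (adjusted p = 0.282). The Gdf11 groups were apart, while for Bmp2 the highest labelled KO array lay just below the lowest control. Tgfb2 went the other way, with 7.43, 7.33 and 7.31 in the labelled KO arrays, against 7.09, 7.03 and 7.22 in controls, at 0.25 ± 0.088 (adjusted p = 0.249).

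Tgfb1, the ligand associated with microglia, read 7.55, 7.41 and 7.83 in the labelled KO arrays, against 7.39, 7.45 and 7.60 in controls. Tgfb3 read 7.97, 7.80 and 7.99 in the labelled KO arrays, against 7.86, 7.83 and 7.87 in controls. Both overlapped, and Tgfb1, at 0.12, was at -0.0029 without labelled KO array 3. Among the labelled KO arrays that one was highest for several lists. It stood above the controls by 0.515 for microglia, 0.547 for astrocyte, 0.425 for oligodendrocyte and 0.171 for interneuron markers. Bmp4 read 7.79, 7.71 and 7.66 in the labelled KO arrays, against 7.49, 7.62 and 7.52 in controls, without overlap but with a difference of only 0.18 ± 0.084 (SE; limma adjusted p = 0.392). Bmp7, which is expressed in meninges, read 7.96, 7.79 and 8.18 in the labelled KO arrays, against 7.89, 7.91 and 7.86 in controls, and without labelled KO array 3 its difference of 0.091 became -0.0091.

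The other 18 ligands lay between -0.21 and 0.28, none with an unadjusted p under 0.0776. Of these, Bmp5 had the largest positive difference and Bmp3 the largest negative one, and 2, Gdf7 and Bmp8a, were lower in every labelled KO array than in any control. Some members were dim. A mean below the lowest array median was found for 14 of the 54 members (25.9%) and for 41% of all genes. Whether differences of such probe sets are understated was not tested. Of those 14, Bmp2 alone had an unadjusted p under 0.05.

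The meningeal and fibroblast markers, which label a source of several BMP ligands, were higher in the labelled KO arrays for 12 of 12 genes, none of them past the adjusted threshold. Their mean log2 level ranged from 7.99 to 8.29 in labelled KO arrays and from 7.76 to 7.98 in controls. The part of these cells in the ligand values was not tested. Choroid plexus markers ranged from 6.56 to 6.84 in labelled KO arrays and from 6.45 to 6.58 in controls, with 4 of 8 genes higher. Most of the spread among the labelled KO arrays came from Ttr, at 9.85, 10.95 and 8.30.

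Of the 8 Smad genes 6 had positive differences, and 2 had an unadjusted p under 0.05, 1 in each direction. Smad7, the inhibitory Smad induced by TGF-beta, read 8.21, 7.996 and 8.26 in the labelled KO arrays, against 8.51, 8.35 and 8.46 in controls, a difference of -0.29 ± 0.099 (SE; limma adjusted p = 0.236) with no overlap. The BMP-responsive inhibitor Smad6 read 6.97, 6.98 and 6.78 in the labelled KO arrays, against 6.98, 6.78 and 6.84 in controls, and its groups overlapped.

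Smad5 read 8.82, 8.86 and 8.68 in the labelled KO arrays, against 8.56, 8.43 and 8.69 in controls, at 0.23 ± 0.097 (SE; limma adjusted p = 0.337). Smad1 read 8.48, 8.43 and 8.62 in the labelled KO arrays, against 8.39, 8.42 and 8.35 in controls. These 2 carry BMP signals, and Smad9, the other BMP Smad, was at -0.015. The shared partner Smad4 read 10.42, 10.61 and 10.40 in the labelled KO arrays, against 10.30, 10.36 and 10.27 in controls, higher in every labelled KO array by a small margin (0.17 ± 0.090).

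The TGF-beta and activin Smads overlapped between groups. Smad2 read 9.04, 9.12 and 9.33 in the labelled KO arrays, against 8.99, 9.01 and 9.21 in controls. Smad3 read 9.72, 9.55 and 9.58 in the labelled KO arrays, against 9.47, 9.60 and 9.33 in controls. The 95% interval was -0.15 to 0.33 for Smad2 and -0.072 to 0.37 for Smad3. With 3 arrays a group, no difference and differences within those intervals could not be told apart.

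**Figure D3:**
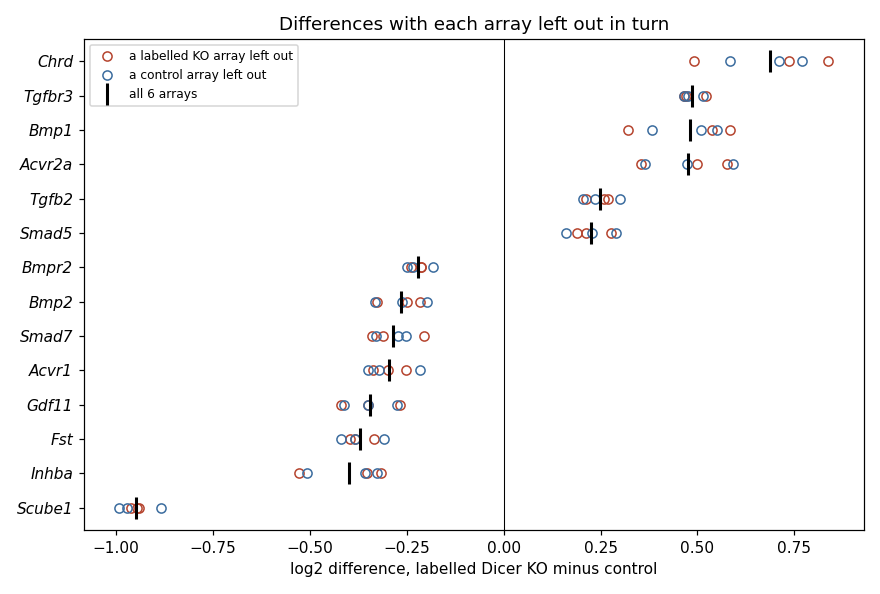
Log2 difference of the 14 leading members with all 6 arrays (black bars) and with each array left out in turn (red circles, a labelled KO array left out; blue circles, a control array left out). No circle crosses 0, which is fixed in advance for members whose groups do not overlap (all but Inhba and Smad5). Chrd spans 0.49 to 0.84 and Scube1 -0.99 to -0.89.

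Pathway genes outside the naming rule were examined as 2 lists from background knowledge, which share Ltbp2 and Skil. Of 60 measured regulators, co-receptors and ligands, 1 rose past the adjusted threshold and none fell, and 8 (13.3%) had an unadjusted p under 0.05. Over all genes 0.281% were called and 14.4% had an unadjusted p under 0.05, so the list lay near the share of all genes. Tab2, an adaptor of the kinase TAK1 that also serves cytokine receptors, read 10.84, 11.05 and 10.81 in the labelled KO arrays, against 10.09, 10.34 and 10.004 in controls, and rose by 0.75 ± 0.11 (SE; limma adjusted p = 0.0481). This call was lost without labelled KO array 1 or 2 or any 1 of the controls, when limma called 0 genes in all (2197 to 2532 at an unadjusted p under 0.05). Map3k7, which encodes TAK1 itself, was at 0.31 ± 0.092 (adjusted p = 0.192).

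Twsg1, which encodes twisted gastrulation, a partner of chordin in binding BMPs, read 9.57, 9.51 and 10.05 in the labelled KO arrays, against 8.88, 9.02 and 9.11 in controls. The groups were well apart and the difference was 0.71 ± 0.14 (SE; limma adjusted p = 0.0814). Labelled KO array 3, which had the highest astrocyte markers, was the highest, unlike Chrd and Bmp1, which were lowest there among the labelled KO arrays. Fstl4, a follistatin-like gene, was at -0.37 ± 0.11 (adjusted p = 0.181).

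Of 24 measured genes reported as Smad-dependent targets, none passed the adjusted threshold with limma. An unadjusted p under 0.05 was found for 4 (16.7%), 2 in each direction, near the 14.4% of all genes. Id4 and Id3 encode inhibitors of basic helix-loop-helix factors that BMPs induce. Id4 read 10.96, 10.93 and 10.73 in the labelled KO arrays, against 10.10, 10.39 and 10.20 in controls (0.64 ± 0.11, adjusted p = 0.0542). Id3 read 8.28, 8.24 and 8.34 in the labelled KO arrays, against 7.88, 8.18 and 7.70 in controls (0.37 ± 0.12, adjusted p = 0.224). Neither overlapped, while Id1 was at -0.015 and Id2 at 0.055.

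Klf10 and Pmepa1, both TGF-beta-induced genes, had negative differences like Smad7. Klf10 read 7.86, 7.53 and 7.98 in the labelled KO arrays, against 8.16, 8.35 and 8.85 in controls (-0.66 ± 0.18, limma adjusted p = 0.152). Pmepa1 read 9.27, 9.09 and 9.48 in the labelled KO arrays, against 9.75, 9.61 and 9.61 in controls (-0.38 ± 0.11, adjusted p = 0.187). All 3 were lowest in labelled KO array 2. The reported targets Tgfbi, Fn1, Ccn2 and Snai1 lay between -0.020 and 0.053. Others lay farther from 0, with Junb at -0.46 ± 0.34 (SE), Hey1 at -0.16 and Acta2 at 0.20. The list did not move in 1 direction, with 13 genes above 0 and 11 below.

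**Figure D4:**
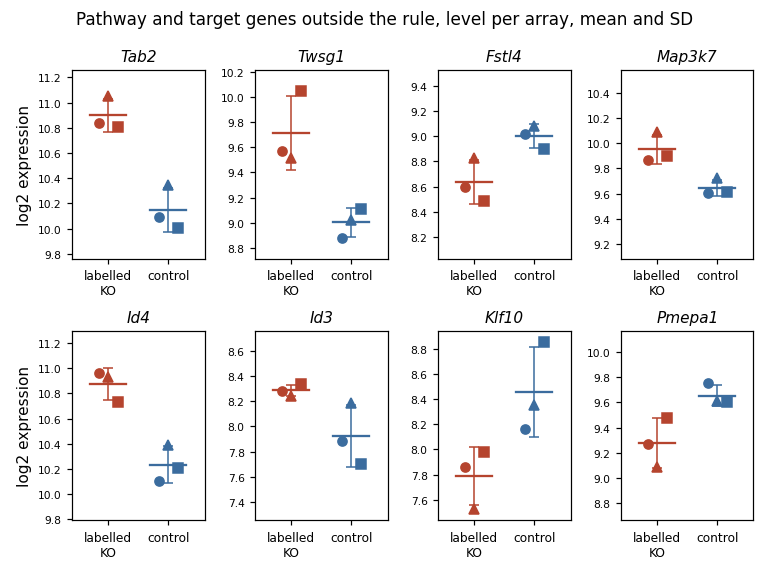
Log2 expression per array of 8 pathway and target genes outside the naming rule, labelled KO at the left and control at the right of each panel, with means and SD (n = 3 each). The 8 were picked for their small p, and the groups do not overlap in any of the 8 panels. Over the full lists the groups did not overlap in 13 of 60 pathway genes (21.7%) and 5 of 24 target genes (20.8%). The share of all genes was 20.3%. Tab2 alone passed the adjusted threshold.

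Marker lists of the cell types in the cortex give the setting for these values. Excitatory neuron markers averaged 9.95 to 10.01 in the labelled KO arrays and 10.05 to 10.15 in controls, with 7 of 11 genes lower and 1 called. Astrocyte markers ranged from 10.58 to 11.07 in labelled KO arrays and from 10.43 to 10.60 in controls, with 8 of 10 genes higher and none called. Microglia markers ranged from 8.04 to 8.81 in labelled KO arrays and from 8.14 to 8.48 in controls. Oligodendrocyte precursor markers ranged from 8.15 to 8.31 in labelled KO arrays and from 8.38 to 8.51 in controls, with no overlap, 5 of 6 genes lower and none called. The part of these cell types in the members' values was not tested.

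**Figure D5:**
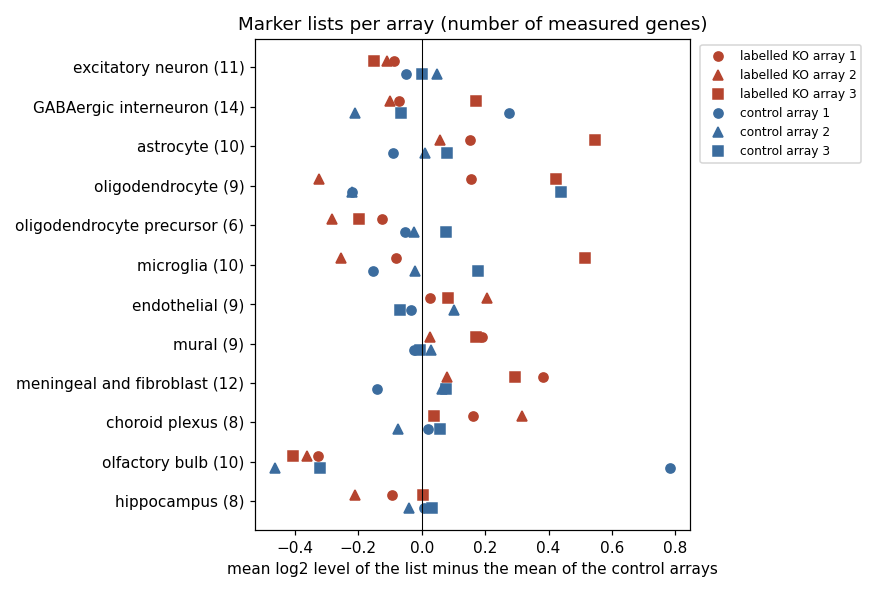
Mean log2 level of each marker list per array, minus the mean of the control arrays (labelled KO in red above control in blue; number of measured genes in brackets). Control array 1 stands 0.78 above that mean for olfactory bulb markers, and labelled KO array 3 is 0.55 above it for astrocyte markers.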

How the data were processed

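The deposited table holds 1 log2 value per probe set and array for 35557 probe sets. Per the submitters' processing notes RMA and limma were used; their versions, the background correction and how probe sets were defined are not stated there. The labels number the arrays as biological replicates, so every p-value rests on the variation among these 6 animals. A probe table from the platform annotation gave 1 symbol for 21789 rows. Of these, 21698 were matched through the gene identifier to the current symbol (GRCm38.p6), whether or not it differed. The probe set of highest mean was kept for each of 19938 genes.

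Groups were compared with limma 3.58.1 in R 4.3.3 (group as the only term, two-sided, prior degrees of freedom 4.89). The steps were tested on simulated data. An exact permutation of 3 against 3 arrays cannot give a p under 0.1, so none is reported. The members and lists were chosen with earlier results of these data known. Per-array values are given for members with an unadjusted p under 0.05 or a difference of 0.3 or more, and for a fixed set of core members whatever their values. From the other lists, genes past the adjusted threshold and up to 4 of smallest p are named, with Id1, Id2 and a few others chosen after their values were seen.

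Alternatives tried were a block for the array number, omission of single arrays, sex as a covariate, 2 further normalizations, omission of dim genes, averaged probe sets, a trended and robust prior, array weights and a looser threshold of 0.1. Differences within each sex were added after seeing the data.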

Additional observations from a re-analysis of the deposited data

How the results depend on the processing

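Arrays sharing a number had deviations that correlated at 0.089, 0.166 and 0.294, and arrays of different number at -0.229 to 0.094. The highest of the latter was control array 1 with labelled KO array 2. The labels give only a number, and whether arrays of the same number were handled together was not tested. With that number as a replicate block limma called 215 genes in all and 3 members (Scube1, Chrd and Acvr2a). With sex as a covariate it called 0 genes and 0 members, with 2292 genes and 14 members at an unadjusted p under 0.05. With only the 9969 brighter genes tested it called 178 genes and 2 members, and 11 members and 2772 of the genes tested did not overlap, fewer members and genes being tested. Array weights called 1116 genes and 7 members, and an adjusted p under 0.1 gave 320 and 2. With each array left out, all genes called ranged from 0 to 129 (2197 to 3373 at an unadjusted p under 0.05), members called from 0 to 1, the members' median difference from 0.027 to 0.10 and members without overlap from 19 to 27 (5523 to 7085 of all genes). The causes were not tested. The 14 leading members, chosen by their p in these same arrays, kept their sign under each of these settings in which they were tested. Except in Inhba and Smad5 their groups do not overlap, so leaving out an array could not change the sign. Of the lower ones, Scube1, Fst, Gdf11, Inhba, Acvr1 and Smad7 were highest in control array 1, where the olfactory bulb markers stood apart. Bmp2 and Bmpr2 were highest in control array 2. Without control array 1 the unadjusted limma p was 0.0509 for Gdf11, 0.0607 for Smad7, 0.0647 for Acvr1 and 0.0692 for Inhba. For Scube1, Fst, Bmp2 and Bmpr2 it stayed under 0.05. The part of olfactory bulb tissue in these values was not tested. Bambi turned to 0.025 with array weights, and with arrays left out it ranged from -0.23 to 0.024, Tgfb1 from -0.0029 to 0.21 and Bmp7 from -0.0091 to 0.19. Without detection calls it is not known how far each dim probe set stood above background.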

Other observations

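Within each sex, a split added after seeing the data and with too few animals for a test, Scube1 was at -0.95 in the females (labelled KO array 2 against control arrays 1 and 3) and at -0.92 in the males (labelled KO arrays 1 and 3 against control array 2). Tgfbr3 was at 0.51 in the females and 0.49 in the males, and Acvr2a at 0.43 and 0.51. Chrd was at 1.17 in the females and 0.33 in the males, Bmp1 at 0.83 and 0.27, Gdf11 at -0.57 and -0.13, and Smad7 at -0.49 and -0.12. Since the only labelled KO female is array 2, these differences between the sexes cannot be told apart from that of a single animal.

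The probe set shared by Gdf1 and the ceramide synthase gene Cers1 read 9.40, 9.31 and 9.12 in the labelled KO arrays, against 9.68, 9.59 and 9.44 in controls, with no overlap and a difference of -0.29 in the means. Which of the 2 transcripts it reads was not tested. Tll1, which encodes a protease of the same family as Bmp1, was at -0.49 ± 0.16 (SE; limma adjusted p = 0.216), the opposite sign of Bmp1. It read 6.35, 6.21 and 6.72 in the labelled KO arrays, against 7.22, 6.81 and 6.74 in controls. Its probe set is dim, with both group means below the lowest array median, and control array 1 was the highest.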
